A study of Mus musculus with 12 samples.

Results

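The comparison described here set microglia that carried a lipid load against monocyte-derived macrophages that carried one, within the same kind of mouse brain tumour. It used 6 of the 12 ATAC-seq libraries of the series, 3 of lipid-laden microglia (LL-MG) and 3 of lipid-laden monocyte-derived macrophages (LL-MDM), picked by the library names that head the deposited count table. The remaining libraries, 3 of microglia (MG) and 3 of monocyte-derived macrophages (MDM) that were not lipid-laden, entered the fit and served to ask whether a lineage difference changed with lipid load. All 4 groups came from brain tumours labelled Ink4a/ArfKO with PDGFB, so the deletion is carried by every group, and according to the series description the growth factor was expressed in Nestin-positive progenitor cells. Cells had been sorted by flow cytometry. The sources used here do not state the gates, the lipid stain or the age of the animals.

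Microglia are the resident macrophages of the brain and arise from yolk-sac precursors, whereas monocyte-derived macrophages enter a tumour from the blood. Both engulf debris, and a macrophage that takes up more myelin or membrane than it can export stores the cholesterol and fatty acids as droplets and turns foamy. ATAC-seq uses the transposase Tn5 to cut DNA that is not packed in nucleosomes, so the number of reads in a region measures how accessible its chromatin was. Accessible sites comprise promoters and the distal enhancers through which lineage factors act, and an open site does not by itself report transcription.

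The libraries held 2268884, 2150072 and 2764146 counts in LL-MG, and 1162969, 7390521 and 3050059 counts in LL-MDM, over 117835 regions of the mm10 build. Between 6.82% and 10.6% of regions had no count in LL-MG, against 0.998% to 14.7% in LL-MDM. Across the 77737 regions tested, the log2 CPM of single LL-MG libraries correlated with that of LL-MDM libraries at Pearson's r of 0.719 to 0.830, below the 0.917 to 0.924 within LL-MG and the 0.873 to 0.951 within LL-MDM. These coefficients share each library's depth and carry no test. The sample titles name another group than the library names for 8 of 12 samples. With groups by title, edgeR's quasi-likelihood test called 0 regions and 0 gene loci in this comparison, with 857 regions and 106 loci at an unadjusted p under 0.05. The titles number 3 mice, but since they conflict with the library names on the groups, the mouse behind each library is uncertain. The p-values weigh the spread among these libraries, which may be technical.

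Levels are CPM values (counts scaled to a common library total, corrected by TMM). Libraries are numbered 1 to 3 in accession order within each group. Each number takes in a library of every group, with 4 consecutive library numbers, but the main fit did not pair them. Differences are log2 of LL-MG over LL-MDM with a standard error (SE), where a positive value means more accessible in LL-MG. A region or locus was called where the Benjamini-Hochberg adjusted p of edgeR's quasi-likelihood test was under 0.05. Of the tested regions, 8017 (10.3%) were higher in LL-MG and 8687 (11.2%) lower. A gene locus is the sum of the regions over a protein-coding gene and 5 kb to each side, and of 15548 loci 1863 (12.0%) were higher and 1293 (8.32%) lower. Loci whose LL-MG and LL-MDM libraries did not overlap made up 41.6% of all tested. Among the loci given below with their levels in all 6 libraries, the groups overlapped at Plin2 only, which for the loci chosen by p was a condition of the choice.

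Accessible promoters carry part of the lineage difference, and a few are shown here as examples. Cdkn2a was taken because the labels name this locus as deleted, and the others from the 8 windows in each direction with the smallest p, picked for named genes and, among the lower, for the strings they hold. Each RefSeq window (mm10, GRCm38.p6) runs from 250 bases before to 50 after an annotated start, 5′ to 3′ on the gene's strand. Capitals mark matches, on either strand, to 8 strings that stand for known motifs. These were GAGGAAGT (PU.1), TGANTCA (AP-1), CTA and TAG with any 4 bases between them (MEF2), GAAA and GAAA with any 2 between them (IRF), TTGCNNAA (C/EBP), TGTGGTT (RUNX), CACGTG (the E-box of MiT/TFE factors) and GGGCGG (SP/KLF), none of which contains another.
Sall1 promoter, chr8:89042813-89043112 (minus strand): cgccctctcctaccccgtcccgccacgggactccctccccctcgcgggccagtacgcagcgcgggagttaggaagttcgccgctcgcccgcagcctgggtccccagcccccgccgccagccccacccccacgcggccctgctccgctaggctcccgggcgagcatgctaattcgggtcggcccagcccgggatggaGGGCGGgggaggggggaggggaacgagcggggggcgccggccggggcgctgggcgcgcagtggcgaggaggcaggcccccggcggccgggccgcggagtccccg
Tgfa promoter, chr6:86194972-86195271 (plus strand): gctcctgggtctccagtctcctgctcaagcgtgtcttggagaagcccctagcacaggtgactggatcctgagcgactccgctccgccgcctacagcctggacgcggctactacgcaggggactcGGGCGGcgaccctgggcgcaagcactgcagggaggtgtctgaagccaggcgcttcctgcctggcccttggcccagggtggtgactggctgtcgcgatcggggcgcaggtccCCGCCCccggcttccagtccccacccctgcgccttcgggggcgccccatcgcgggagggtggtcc
Cdkn2a promoter, chr4:89282143-89282442 (minus strand): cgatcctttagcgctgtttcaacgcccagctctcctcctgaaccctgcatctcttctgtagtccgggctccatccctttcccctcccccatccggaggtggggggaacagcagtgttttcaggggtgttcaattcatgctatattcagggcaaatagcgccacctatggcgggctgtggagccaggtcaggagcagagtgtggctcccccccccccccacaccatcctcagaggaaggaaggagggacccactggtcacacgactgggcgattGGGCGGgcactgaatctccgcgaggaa
Gpr132 promoter, chr12:112860867-112861166 (minus strand): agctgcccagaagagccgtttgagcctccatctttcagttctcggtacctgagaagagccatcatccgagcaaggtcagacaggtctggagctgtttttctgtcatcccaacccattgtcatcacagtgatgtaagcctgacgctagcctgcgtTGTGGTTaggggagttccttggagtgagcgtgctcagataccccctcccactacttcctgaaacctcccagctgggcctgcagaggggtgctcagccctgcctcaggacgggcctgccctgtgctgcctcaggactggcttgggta
Il1r1 promoter, chr1:40224830-40225129 (plus strand): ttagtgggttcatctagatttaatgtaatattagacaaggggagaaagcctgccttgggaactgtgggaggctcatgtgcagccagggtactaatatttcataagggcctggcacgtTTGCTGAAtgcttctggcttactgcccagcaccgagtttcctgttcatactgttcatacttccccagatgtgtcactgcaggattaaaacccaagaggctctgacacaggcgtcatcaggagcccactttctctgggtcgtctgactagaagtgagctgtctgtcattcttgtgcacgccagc
Clec12a promoter, chr6:129349994-129350293 (plus strand): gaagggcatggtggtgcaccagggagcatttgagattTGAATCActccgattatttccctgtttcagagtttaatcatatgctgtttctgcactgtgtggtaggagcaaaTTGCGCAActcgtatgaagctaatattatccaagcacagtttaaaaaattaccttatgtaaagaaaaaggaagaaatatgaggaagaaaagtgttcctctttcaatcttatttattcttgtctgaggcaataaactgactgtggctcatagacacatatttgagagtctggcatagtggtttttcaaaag
The Sall1, Tgfa and Cdkn2a windows lay under regions that were more open in LL-MG, and the letters found in them were those of the SP/KLF box. Of all 32851 windows 35.7% hold it, but so do 66.2% of those with a tested region that was not called. It therefore does not set the higher windows apart. Gpr132, Il1r1 and Clec12a lay under regions more open in LL-MDM and held a RUNX string (5.27% of all windows), a C/EBP string (10.8%) and both an AP-1 (7.81%) and a C/EBP string. Lower windows with a smaller p than these that are not printed were Gm12907, with an IRF string, Gm40093, with none of the 8, and Mefv, with a MEF2 string.

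At the Sall1 promoter, the region covering the window measured 34.8, 38.1 and 37.0 CPM in LL-MG and 3.54, 5.29 and 3.08 CPM in LL-MDM, with no overlap. Sall1 encodes the zinc-finger repressor that holds microglia in their identity. The Tgfa region, at the start of the gene for the growth factor TGF-alpha, measured 24.9, 28.2 and 19.6 CPM in LL-MG and 2.66, 3.48 and 3.77 CPM in LL-MDM. On the other side, the Gpr132 region, at a receptor for oxidised lipids and lactate, measured 14.9, 13.2 and 13.8 CPM in LL-MG and 42.5, 45.8 and 43.5 CPM in LL-MDM. The interleukin-1 receptor gene Il1r1 measured 2.71, 3.29 and 3.63 CPM in LL-MG and 16.8, 16.7 and 26.7 CPM in LL-MDM at its promoter region, and Clec12a, which encodes an inhibitory C-type lectin of myeloid cells, 1.81, 2.35 and 2.90 CPM in LL-MG and 17.7, 18.6 and 19.5 CPM in LL-MDM. The log2 differences were 3.05 ± 0.26 at Sall1, 2.79 ± 0.31 at Tgfa, -1.66 ± 0.18 at Gpr132, -2.63 ± 0.30 at Il1r1 and -2.96 ± 0.33 at Clec12a, with adjusted p-values of 5.60e-10, 5.77e-08, 6.40e-08, 8.47e-08 and 9.33e-08.

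Across all promoter windows, 831 overlapped a region higher in LL-MG, 620 a lower one and 11281 a tested region that was not called. The RUNX string stood in 7.58% of the windows lower in LL-MG, 3.25% of the higher and 3.86% of those not called. Corresponding shares were 12.3%, 8.42% and 7.70% for C/EBP and 9.68%, 6.86% and 5.16% for AP-1. PU.1, the factor that both lineages depend on, had its string in 5.32% of lower, 3.85% of higher and 3.61% of uncalled windows. MEF2, whose factors act in microglia, was found in 3.39%, 4.21% and 2.69%, and IRF in 4.03%, 1.44% and 3.10%. The E-box stood in 8.06%, 8.78% and 10.9%, and the SP/KLF box in 52.1%, 65.6% and 66.2%. A match is a description of letters and not of a bound site. Base composition was not matched between the 3 kinds of window.

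Promoters were called less often than other places, as the bar chart of called regions by position shows. Of 10518 promoter regions, 7.03% were higher and 4.92% lower. Of 39293 regions inside gene spans, 12.3% were higher and 10.7% lower, and of 27926 outside any span, 8.74% were higher and 14.2% lower. Promoter regions were also wider, with a median of 583 bp against 220 and 228 bp. These shares are descriptive.

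**Figure D1:**
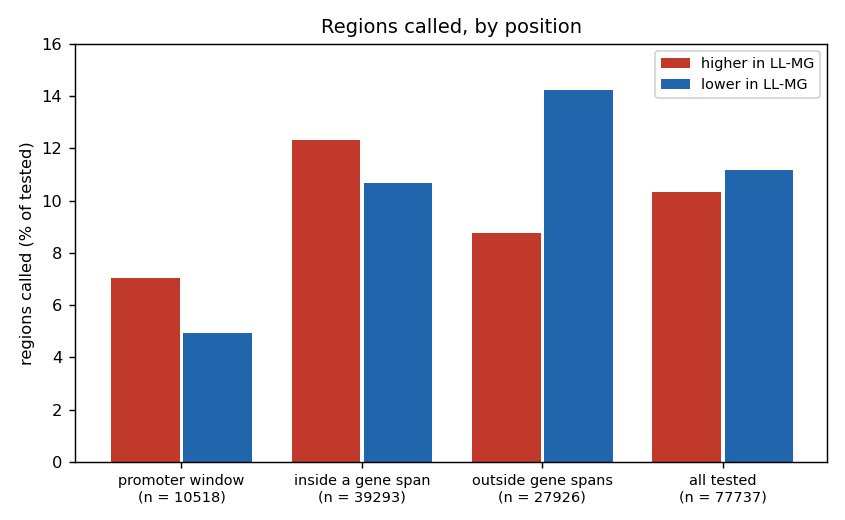
Percent of tested regions called higher (red) or lower (blue) in LL-MG than in LL-MDM, for regions on a promoter window, inside a protein-coding gene span, outside gene spans and for all regions. Promoter regions had the smallest shares, 7.03% higher and 4.92% lower, and regions outside gene spans had the largest share lower, 14.2%.

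Differences of single regions were often large. Among the 8017 higher regions 5920 differed by at least 2-fold, 1732 by at least 4-fold and 282 by at least 8-fold. Among the 8687 lower regions the numbers were 6925, 3119 and 1161. The median log2 difference was 1.36 for higher and -1.62 for lower regions, and the median widths were 214 and 294 bp. The identifiers of the regions name the groups in which they were found. Of 6787 regions named for LL-MG and not LL-MDM, 3545 were higher and 3 lower, and of 12998 named for LL-MDM and not LL-MG, 49 were higher and 4280 lower. The same counts underlie both, so this split is no independent evidence.

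Regions with an 8-fold difference and no overlap between lipid-laden libraries were also compared in the libraries without lipid load. The latter took part in the filter and in the estimate of the spread, but not in the difference or the overlap itself. In the 282 such regions that were higher, the median CPM was 6.33, 6.11 and 5.81 in LL-MG and 0, 0.695 and 0.685 in LL-MDM. There MG measured 4.82, 2.92 and 3.90, and MDM 0.219, 0.163 and 0.171. In the 1122 lower ones it was 0, 0.470 and 0.363 in LL-MG and 4.43, 4.45 and 4.79 in LL-MDM, beside 0.741, 1.54 and 1.22 in MG and 5.84, 5.70 and 5.30 in MDM. The MG and MDM libraries kept the lineage order in both sets.

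The region with the smallest p lay within Nedd4l, which encodes a ubiquitin ligase, at chr18:64971850-64972516, and measured 1.36, 0.940 and 1.81 CPM in LL-MG and 38.1, 39.5 and 43.1 CPM in LL-MDM. Its log2 difference was -4.82 ± 0.28 (adjusted p 2.60e-13), from 10 counts in LL-MG and 453 in LL-MDM over 3 libraries each. Foxp1, which encodes a forkhead repressor, held the next one at chr6:99435026-99435512, with 0.452, 0.470 and 1.09 CPM in LL-MG and 31.9, 35.7 and 39.0 CPM in LL-MDM and a difference of -5.64 ± 0.37 (adjusted p 2.77e-12) on 5 and 407 counts. At Pde7b, the gene of a cyclic AMP phosphodiesterase, a region at chr10:20505361-20505904 measured 1.36, 0.940 and 0.363 CPM in LL-MG and 42.5, 37.7 and 37.0 CPM in LL-MDM, a difference of -5.47 ± 0.38 (adjusted p 2.77e-11) on 6 and 427 counts. In all 3 regions the LL-MG libraries held few counts, so the fitted folds are imprecise. MG measured 5.52 ± 1.57, 4.47 ± 2.41 and 2.23 ± 1.32 CPM (mean ± SD, n = 3) in these regions, and MDM 40.6 ± 2.91, 40.1 ± 3.68 and 21.7 ± 5.86 CPM. The MG mean was above that of LL-MG each time, but at Pde7b the libraries overlapped, with MG 1 at 0.741 CPM.

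The other lower regions with the smallest p lay in Alpk2, an alpha-type kinase gene (-3.23 ± 0.24), 4581 bp from Birc6, which encodes an inhibitor of apoptosis (-3.13 ± 0.24), in Plbd1, a phospholipase B-like gene (-2.94 ± 0.23), in Nckap5 (-3.47 ± 0.28) and 10528 bp from Cd83, a marker of activated dendritic cells (-2.78 ± 0.23). LL-MDM averaged 23.8 to 41.3 CPM over these 8 regions and LL-MG 0.670 to 5.96 CPM. Libraries that do not overlap, as at 38.9% of all regions, were a condition for choosing these.

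Higher regions with the smallest p included sites in Rbfox1, a splicing factor gene (3.55 ± 0.28), and in Pxk, a kinase-like gene with a phosphoinositide-binding domain (2.28 ± 0.19). Others were the Sall1 promoter region, the start of the splicing factor gene Nova1 (2.69 ± 0.23), the potassium channel gene Kcnma1 (3.05 ± 0.26), the promoter of the protease gene Adamts1 (3.35 ± 0.29), the zinc transporter gene Slc39a11 (3.10 ± 0.27) and Magi1 (3.13 ± 0.27). The Rbfox1 region at chr16:6842122-6842661 measured 31.2, 39.0 and 41.0 CPM in LL-MG and 2.66, 3.48 and 2.74 CPM in LL-MDM. LL-MG averaged 29.96 to 66.7 CPM over the 8 regions, MG 18.9 to 39.0, LL-MDM 2.94 to 13.6 and MDM 0.182 to 4.16. LL-MDM lay above MDM in 8 of 8, and the lineage difference was smaller with lipid load in all 8 by the interaction test (10.9% of all regions were called in it). The share that microglial nuclei might have in the LL-MDM libraries was not tested.

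Over gene loci, the smallest p-values among loci higher in LL-MG were at Cables1, Pdcd1, Cdk14 and Nova1, and among lower loci at Pde7b, Rasgrp1, Plbd1 and Arhgap28. Cables1 (chr18:11839274-11945627), which encodes an adaptor of cyclin-dependent kinases, measured 184, 162 and 179 CPM in LL-MG and 55.8, 58.0 and 48.4 CPM in LL-MDM. MG measured 169.7, 204 and 182 CPM, and the difference between the lipid-laden groups was 1.69 ± 0.10 (adjusted p 4.20e-10). Pdcd1 (chr1:94038305-94052553), the gene of the checkpoint receptor PD-1, measured 142, 135 and 135 CPM in LL-MG and 64.0, 65.8 and 60.6 CPM in LL-MDM, and 4 of its 4 regions were higher. Its difference of 1.11 ± 0.08 (adjusted p 9.35e-09) stood beside one of 1.11 ± 0.07 between MG and MDM. At Cdk14, a kinase gene of the Wnt pathway, the libraries measured 183, 174 and 171 CPM in LL-MG and 55.0, 64.0 and 60.0 CPM in LL-MDM, a difference of 1.53 ± 0.12 (adjusted p 3.73e-08) that exceeded the 0.83 ± 0.11 without lipid load by 0.69 ± 0.16 (adjusted p 0.0107).

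Nova1 (chr12:46697895-46819480) measured 46.0, 45.7 and 53.6 CPM in LL-MG and 9.03, 6.41 and 9.06 CPM in LL-MDM, with 3 of 3 regions higher and a difference of 2.67 ± 0.23 (adjusted p 5.98e-08). The zinc-finger gene Zfp697 followed at 2.09 ± 0.18 (adjusted p 8.84e-08), with 6 of 6 regions higher. Further down the order stood Sgce, the gene of epsilon-sarcoglycan, at 1.505 ± 0.14, with 61.8% of its counts shared with neighbouring genes, and Bik, a pro-apoptotic BH3-only gene, at 1.64 ± 0.16.

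Cdkn2a ranked among the same 8 loci. It is the locus of Ink4a and Arf, both inhibitors of the cell cycle, and the labels give it as deleted in every group. Its sum measured 101, 87.7 and 78.8 CPM in LL-MG and 26.3, 25.9 and 24.1 CPM in LL-MDM, with 80.6, 63.5 and 64.1 in MG and 16.2, 17.3 and 11.0 in MDM. The difference was 1.81 ± 0.15 (adjusted p 9.62e-08). All 4 tested regions were higher, by 2.15 ± 0.28 at chr4:89282066-89282506, by 1.93 ± 0.25 at chr4:89294535-89294960, and by 1.45 and 1.26 at the remaining ones. The first lies on the promoter window printed above. The labels do not say which bases the deletion removed, so accessible sites in the locus do not check the genotype.

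Among the lower loci, Pde7b measured 26.0, 26.0 and 21.4 CPM in LL-MG and 119.8, 115 and 108 CPM in LL-MDM, with 8 of 10 regions lower, at -2.23 ± 0.12 (adjusted p 3.55e-10). Rasgrp1, which encodes an activator of Ras, measured 21.7, 21.5 and 20.4 CPM in LL-MG and 108, 92.5 and 103 CPM in LL-MDM, with 7 of 7 regions lower, at -2.23 ± 0.13 (adjusted p 4.20e-10). These loci were chosen among those whose groups do not overlap. Plbd1 measured 15.3, 20.1 and 20.0 CPM in LL-MG and 78.8, 80.3 and 79.7 CPM in LL-MDM, a difference of -2.10 ± 0.14, and Arhgap28, the gene of a GTPase-activating protein, 8.09, 7.77 and 11.1 CPM in LL-MG and 46.0, 60.2 and 64.1 CPM in LL-MDM, a difference of -2.68 ± 0.18. The others in order were the myosin gene Myo16 (-1.33 ± 0.09), the serotonin receptor gene Htr7 (-2.13 ± 0.15), Vav3 (-2.05 ± 0.13) and the tenascin-R gene Tnr (-2.35 ± 0.16). At Myo16 the difference was smaller with lipid load than the -2.09 ± 0.08 between MG and MDM, by 0.76 ± 0.12 (adjusted p 5.58e-04). The dot plots show these levels by library.

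**Figure D2:**
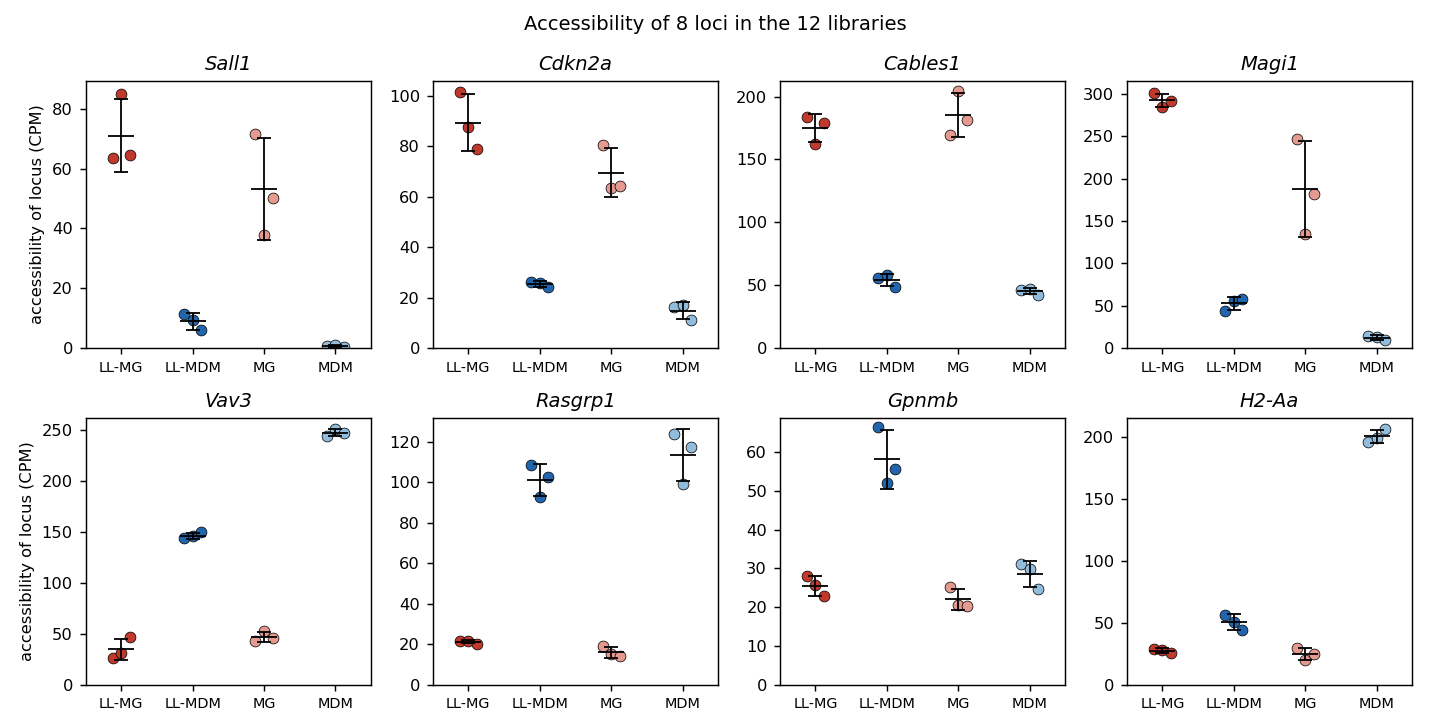
Accessibility in CPM (linear axis from 0) of 8 gene loci in the 3 libraries of each group, with the mean (dash) and SD (bars). Sall1, Cdkn2a, Cables1 and Magi1 were higher in LL-MG than in LL-MDM with no overlap, and Vav3, Rasgrp1, Gpnmb and H2-Aa lower. The gap at H2-Aa between MDM and MG is wider than that between LL-MDM and LL-MG.

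At several loci many regions were called in the same direction. These loci were chosen for having no region called in the other direction, so its absence is no result. Magi1 (chr6:93675453-94283929), which encodes a scaffold of cell junctions, had 24 of its 25 tested regions higher and none lower, and its sum measured 301, 284 and 292 CPM in LL-MG and 44.3, 56.0 and 57.8 CPM in LL-MDM, a difference of 2.42 ± 0.21 (adjusted p 1.27e-05). Its gap between MG and MDM was larger, 3.83 ± 0.21. Frmd4a, a FERM-domain gene, had 27 of 39 regions higher, Dst, the gene of the cytoskeletal linker dystonin, 18 of 22, Denn2b, whose counts were 69.3% shared, 17 of 21, and Dlgap2, the gene of a postsynaptic scaffold, 16 of 20, with none lower. On the opposite side, Vav3 (chr3:109340465-109685694), which encodes an activator of Rac, had 20 of 23 regions lower and none higher, with 26.4, 31.1 and 46.6 CPM in LL-MG and 144, 146 and 149.7 CPM in LL-MDM. Dock5, another Rac activator gene, had 16 of 19 lower at 31.5, 33.8 and 35.2 CPM in LL-MG and 159, 164 and 169 CPM in LL-MDM. Pde4d (22 of 44), the repressor gene Trps1 (19 of 28) and the calcium channel gene Itpr1 (17 of 35) were also lower with no region higher.

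Other loci held regions of both directions. Of 1361 loci with at least 10 tested regions, 412 had called regions of both directions, 442 of the higher direction alone, 375 of the lower alone and 132 of neither. Foxp1 had 24 of 67 regions lower and 3 higher, and its sum differed by -0.52 ± 0.11. The lower ones lay through the gene body, while 2 of the 3 higher ones sat side by side at chr6:98977586-98977780 and chr6:98977879-98978130. Bach2, a repressor gene of lymphocytes and macrophages, had 5 higher and 10 lower of 65, and Lpp, which encodes a focal adhesion protein, 7 and 7 of 56, and neither sum was called.

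**Figure D3:**
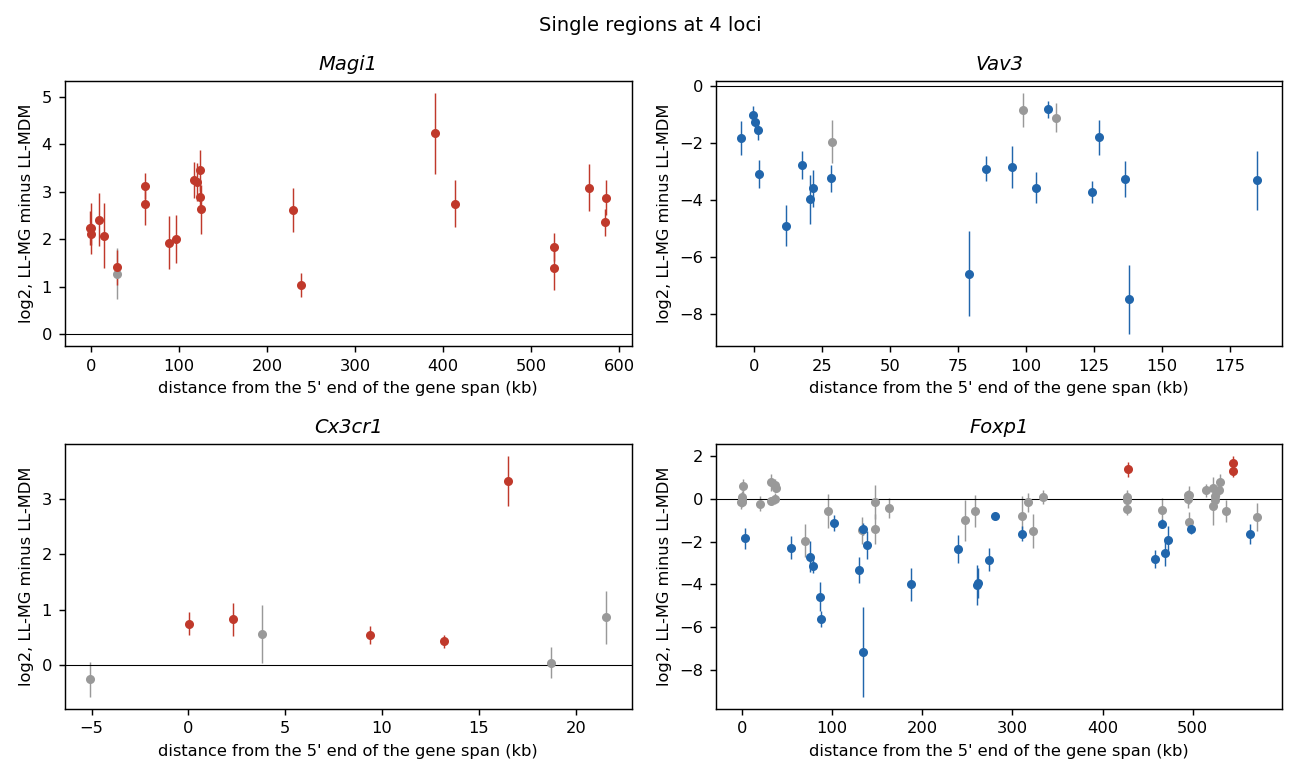
Log2 difference (LL-MG minus LL-MDM, ± SE) of each tested region against its distance in kb from the 5′ end of the gene span, for Magi1, Vav3, Cx3cr1 and Foxp1. Red points were called higher, blue lower and grey not called. The called regions of Magi1 lie above 0 and those of Vav3 below it along the whole gene, and Foxp1 mixes both. Points below -6 have LL-MG libraries at or near 0 counts, so that their fitted size is uncertain.

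Marker loci that were called followed the lineages given by the library names. Over all loci 12.0% were higher and 8.32% lower. Of 20 microglia identity loci 10 were higher in LL-MG and 0 lower (median log2 0.48 against -0.01 over all loci), and of 18 tested loci of monocyte-derived macrophage identity 0 were higher and 12 lower (median -0.61). Sall1 measured 63.4, 85.005 and 64.6 CPM in LL-MG and 11.5, 9.42 and 5.94 CPM in LL-MDM, and its paralog Sall3 38.3, 41.1 and 34.9 CPM in LL-MG and 7.38, 10.6 and 7.81 CPM in LL-MDM. The log2 differences were 3.03 ± 0.26 and 2.04 ± 0.25, with adjusted p-values of 1.09e-06 and 5.40e-06. Nav3, a navigator gene of the cytoskeleton, measured 79.6, 78.1 and 69.4 CPM in LL-MG and 27.1, 25.0 and 27.2 CPM in LL-MDM, a difference of 1.53 ± 0.22 (adjusted p 1.73e-04). Left out singly, LL-MDM 3 and LL-MG 2 each took the microglia count to 6, and without LL-MDM 2 there was 1 lower member.

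Cx3cr1, the fractalkine receptor gene, differed less as a whole (201, 193 and 189.7 CPM in LL-MG and 142, 139 and 124 CPM in LL-MDM, 0.53 ± 0.09, adjusted p 1.28e-04), but 5 of its 9 regions were higher and they were unequal. An 81-bp region inside the gene at chr9:120051748-120051828 measured 9.501, 9.40 and 10.9 CPM in LL-MG and 0, 0.974 and 1.37 CPM in LL-MDM, a difference of 3.33 ± 0.45 (adjusted p 1.78e-06). Its promoter region differed by 0.75 ± 0.21 (adjusted p 0.00855). P2ry12, the purinergic receptor gene, measured 84.3, 92.8 and 86.0 CPM in LL-MG and 38.6, 45.8 and 47.8 CPM in LL-MDM, a difference of 0.95 ± 0.23 (adjusted p 0.0138) in regions that are all shared with a neighbouring gene. Without LL-MDM 2 its adjusted p was 0.0552.

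Tmem119, often used to mark microglia, showed opposite changes within 6 regions. The region overlapping the gene at chr5:113800296-113800593 was higher (27.1, 30.1 and 25.0 CPM in LL-MG and 14.2, 16.8 and 17.1 CPM in LL-MDM, 0.73 ± 0.20, adjusted p 0.00806). Another at chr5:113805180-113805737, outside the gene, was lower (9.501, 10.8 and 10.9 CPM in LL-MG and 50.5, 33.2 and 42.5 CPM in LL-MDM, -1.95 ± 0.22, adjusted p 7.08e-08). Their sum differed by -0.34 ± 0.13 with an adjusted p of 0.0634, and a sum over the gene span alone by 0.67 (adjusted p 0.0228), so the locus value turns with the 5 kb flank. Scaled by library totals only, thinned to equal depth, fitted on the 6 lipid-laden libraries or with sets of 4 library numbers as a block, the sum with its flanks was called lower, at adjusted p 0.0451, 0.0411, 0.00709 and 0.0417.

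Of the genes of recruited macrophages, Runx3, a lineage factor gene, had 8 of 13 regions lower. Its sum measured 122, 133 and 128 CPM in LL-MG and 213, 212 and 206 CPM in LL-MDM, and its upstream promoter region at chr4:135120187-135120698 3.62, 1.88 and 0.363 CPM in LL-MG and 23.0, 27.5 and 22.3 CPM in LL-MDM. Cd44, the hyaluronan receptor gene, had 9 of 18 regions lower and measured 127, 145 and 124 CPM in LL-MG and 222, 227 and 205 CPM in LL-MDM. Log2 differences were -0.72 ± 0.09 (adjusted p 6.42e-06) for the Runx3 sum and -0.72 ± 0.09 (adjusted p 8.50e-06) for Cd44. Fibronectin (Fn1) differed by -1.05 ± 0.14, the membrane protein gene Ms4a7 by -1.11 ± 0.16 and the integrin gene Itga4 by -0.73 ± 0.13 (adjusted p 3.30e-04). Itga4 measured 54.9, 49.4 and 40.4 CPM in LL-MG and 82.1, 77.3 and 80.0 CPM in LL-MDM, and the gap was narrower than the -1.46 ± 0.11 without lipid load, by 0.73 ± 0.17 (adjusted p 0.0103). Ccr2, the monocyte chemokine receptor gene, stood at 2.98, 5.48 and 5.53 CPM in LL-MG and 6.56, 9.29 and 10.3 CPM in LL-MDM. It was not called (adjusted p 0.279), except on the 6 lipid-laden libraries alone (0.00695). Without lipid load, Ccr2 measured 9.86, 40.6 and 27.1 CPM in MG and 26.4, 23.2 and 21.8 CPM in MDM. At this locus MG and MDM thus overlapped, and the wide spread of MG entered the main fit.

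Transcription factor loci of macrophages were mostly modest in size. Of 26 members 7 were higher and 1 lower, against 12.0% and 8.32% of all loci. Mef2a measured 163, 174 and 154 CPM in LL-MG and 121, 120.4 and 109 CPM in LL-MDM, a difference of 0.49 ± 0.09 (adjusted p 4.70e-04), and Mef2c, with 7 of 21 regions higher and 1 lower, one of 0.43 ± 0.11 (adjusted p 0.00687). MEF2 factors maintain microglial gene expression. Smad3, the effector of TGF-beta, differed by 0.38 ± 0.09 (adjusted p 0.00570), and its adjusted p without LL-MDM 3 was 0.0577. Bhlhe40, which encodes a repressor active in recruited macrophages, was lower, with 239, 245 and 245 CPM in LL-MG and 348, 306 and 303 CPM in LL-MDM and a difference of -0.38 ± 0.10 (adjusted p 0.00908). Without LL-MDM 3 or without LL-MG 2, 3 members were higher, and 2 were lower in the latter case.

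Loci of lipid uptake and storage were lower in LL-MG more often than higher. Of 18 tested members 2 were higher, near the 12.0% over all loci, and 5 lower, against 8.32% over all loci (median -0.18). Lower ones included Olr1, a receptor of oxidised lipoprotein (30.2, 30.2 and 30.8 CPM in LL-MG and 43.5, 53.3 and 52.2 CPM in LL-MDM), and the scavenger receptor gene Cd36 (75.4, 60.8 and 71.2 CPM in LL-MG and 96.8, 103 and 104 CPM in LL-MDM). Their differences were -0.75 ± 0.13 and -0.56 ± 0.13, with adjusted p-values of 2.48e-04 and 0.00378. Mgll, which encodes monoacylglycerol lipase, was the strongest in the other direction, with 6 of 13 regions higher, 183, 172 and 168 CPM in LL-MG and 93.5, 101 and 90.02 CPM in LL-MDM and a difference of 0.87 ± 0.13 (adjusted p 1.04e-04). Plin2, the gene of the droplet coat protein, measured 65.1, 79.1 and 67.7 CPM in LL-MG and 66.5, 66.6 and 61.3 CPM in LL-MDM and was not called (adjusted p 0.555). Without LL-MDM 3 or without LL-MG 3 the lower count was 3, and the higher count was 1 without any single library other than LL-MDM 1, and with a block for the mouse in the titles.

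Of 16 loci of cholesterol efflux and LXR targets 2 were higher and 1 lower, shares near those over all loci (12.0% and 8.32%). Abcg1, an exporter gene, measured 178, 156 and 131 CPM in LL-MG and 103, 98.9 and 92.2 CPM in LL-MDM, a difference of 0.67 ± 0.13 (adjusted p 9.09e-04). Scd1, the stearoyl-CoA desaturase gene, was lower (15.3, 14.6 and 14.2 CPM in LL-MG and 27.9, 22.9 and 20.3 CPM in LL-MDM, -0.64 ± 0.16, adjusted p 0.00727), but not over its span alone (adjusted p 0.643) or in thinned libraries (0.114). Abca1, the other main exporter gene, measured 317, 318 and 298 CPM in LL-MG and 359, 398 and 389.8 CPM in LL-MDM, with 4 of 15 regions lower and none higher. Its sum differed by -0.30 ± 0.11 with an adjusted p of 0.0643, and 8 alternatives called it lower, with adjusted p-values from 5.67e-05 to 0.0471. The apolipoprotein gene Apoe measured 53.6, 58.0 and 51.1 CPM in LL-MG and 36.1, 46.5 and 46.6 CPM in LL-MDM in regions shared with neighbours, and was not called (adjusted p 0.115). The higher count fell to 1 without LL-MDM 3, LL-MG 1 or LL-MG 3.

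PPAR and fatty acid oxidation loci were higher in 6 and lower in 2 of 14, against 12.0% and 8.32% of all loci. Acadl, a mitochondrial acyl-CoA dehydrogenase gene, measured 61.7, 58.0 and 61.8 CPM in LL-MG and 44.3, 42.8 and 43.8 CPM in LL-MDM (0.48 ± 0.11, adjusted p 0.00285, and 0.201 as adjusted p in thinned libraries). Rxra, the partner of PPAR and LXR, differed by 0.44 ± 0.11 (adjusted p 0.00650), with an adjusted p of 0.0512 without LL-MG 2. Ppargc1a, a coactivator gene of mitochondrial programmes, was lower, at 24.7, 28.3 and 36.3 CPM in LL-MG and 45.1, 45.5 and 56.9 CPM in LL-MDM and -0.71 ± 0.17 (adjusted p 0.00618). Leaving out any single library but LL-MDM 1 took the higher count to 3, or to 2 for LL-MG 2, and the lower count to 1. With a block for the mouse in the titles 6 were higher and 1 lower.

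The combined signature of lipid-associated macrophages (LAM) and disease-associated microglia (DAM) split in direction. Of 20 members 6 were higher and 4 lower (median 0.26), against 12.0% and 8.32% of all loci. Ctsd, the gene of the lysosomal protease cathepsin D, had 4 of 6 regions higher and measured 134, 127 and 111 CPM in LL-MG and 66.5, 72.9 and 59.4 CPM in LL-MDM. Csf1, the growth factor gene of macrophages, measured 103, 90.5 and 89.5 CPM in LL-MG and 53.3, 53.9 and 53.1 CPM in LL-MDM. Their differences were 0.88 ± 0.11 (adjusted p 6.15e-06) and 0.82 ± 0.12 (adjusted p 4.57e-05). Gpnmb, which encodes a glycoprotein of lipid-laden macrophages, was lower, with 28.1, 25.6 and 22.8 CPM in LL-MG and 66.5, 52.1 and 55.6 CPM in LL-MDM, and so were 4 of its 5 regions. The difference was -1.15 ± 0.15 (adjusted p 9.85e-06), wider than the -0.41 ± 0.13 without lipid load by -0.74 ± 0.20 (adjusted p 0.0240). Clec7a, the beta-glucan receptor gene, was lower by -0.79 ± 0.16 (adjusted p 0.00125), where the gap narrowed from -1.83 ± 0.14 without lipid load, with an interaction of 1.04 ± 0.22 (adjusted p 0.00496).

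Trem2, the lipid-sensing receptor gene that drives this state, measured 80.5, 80.9 and 84.996 CPM in LL-MG and 64.0, 69.4 and 79.4 CPM in LL-MDM as a sum, with 49.6% of its counts shared, and was not called (adjusted p 0.547). One 156-bp region inside the gene at chr17:48348588-48348743 was nevertheless higher, at 11.3, 13.2 and 7.62 CPM in LL-MG and 0.886, 2.09 and 1.71 CPM in LL-MDM and 2.51 ± 0.38 (adjusted p 9.56e-06), while its promoter region differed by -0.20 ± 0.21 (adjusted p 0.559). Of 15 loci of phagocytic receptors and bridging proteins 3 were higher and 0 lower, beside 12.0% and 8.32% over all loci. Gas6, the bridging ligand of TAM receptors, measured 23.4, 18.7 and 24.2 CPM in LL-MG and 7.38, 9.68 and 12.8 CPM in LL-MDM. Its difference was 1.103 ± 0.25 (adjusted p 0.00277), in regions all shared with a neighbour. The higher count of this list was 1 without LL-MDM 1, LL-MDM 3 or LL-MG 2. Lysosome and autophagy loci were higher in 3 and lower in 0 of 17, not far from the 12.0% higher over all loci. They were led by Ctsa, a protease gene whose 1 region is shared (0.55 ± 0.11, adjusted p 0.00110), and Tfeb, the regulator of lysosome genes (0.34 ± 0.09, adjusted p 0.00786, and 0.0607 as adjusted p without LL-MDM 3). The higher count was 1 without LL-MDM 3, and 1 member was lower without LL-MDM 2 or LL-MG 1.

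Immune loci differed by group. Inflammatory and NF-kB loci were higher in 5 and lower in 0 of 18, against 12.0% and 8.32% of all loci. Tnf, an inflammatory cytokine gene in a crowded locus with all counts shared, measured 225, 186 and 191 CPM in LL-MG and 135, 145 and 129 CPM in LL-MDM (0.55 ± 0.09, adjusted p 2.62e-04), the chemokine gene Ccl4 246, 244 and 212 CPM in LL-MG and 141, 149 and 128 CPM in LL-MDM (0.74 ± 0.14, adjusted p 0.00103), and the interleukin gene Il1a differed by 0.48 ± 0.11 (adjusted p 0.00273). The count was 3 without LL-MDM 3 or LL-MG 1. Immunosuppression and repair loci went the other way, with 0 higher and 6 lower of 13 (median -0.37). Cd274, the gene of PD-L1, measured 115, 112 and 111 CPM in LL-MG and 148, 163 and 167 CPM in LL-MDM, and Pdcd1lg2, the gene of the other ligand of PD-1, 73.6, 80.9 and 71.9 CPM in LL-MG and 144, 137 and 135 CPM in LL-MDM, with 9 of 21 regions lower. The differences were -0.52 ± 0.09 (adjusted p 2.31e-04) and -0.87 ± 0.15 (adjusted p 5.53e-04). Il10, an anti-inflammatory cytokine gene, differed by -0.60 ± 0.10 (adjusted p 2.87e-04), though not over its span alone (adjusted p 0.073), and Nt5e, the gene of the adenosine-producing enzyme CD73, by -1.29 ± 0.23 (adjusted p 5.81e-04).

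Of 15 antigen presentation loci 0 were higher and 1, H2-Aa, lower, a class II gene that measured 28.9, 28.3 and 25.6 CPM in LL-MG and 56.6, 50.8 and 44.1 CPM in LL-MDM (-0.85 ± 0.13, adjusted p 1.05e-04). Without LL-MDM 3 or LL-MG 2, 2 were lower. Over all loci 12.0% were higher and 8.32% lower, and 1 of 15 is near the latter. The interaction test called 8 of the 15 (8.72% of all loci). Interferon loci were higher in 0 and lower in 2 of 13, Rsad2 (-0.33 ± 0.10, adjusted p 0.0262) and Irf9 (-0.37 ± 0.13, adjusted p 0.0412), and that count was 0 without LL-MDM 1, LL-MDM 3, LL-MG 1 or LL-MG 3 and 1 without LL-MDM 2 or LL-MG 2. With all libraries kept, DESeq2 called neither Rsad2 (adjusted p 0.0691) nor Irf9 (0.0836). Irf9 was also not called by limma-voom (0.103), nor Rsad2 by edgeR without flanks (0.550).

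Loci of the extracellular matrix were lower in LL-MG more often than higher. Of 16 matrix and angiogenesis loci 2 were higher, near the 12.0% over all loci, and 7 lower, against 8.32% over all loci. Col4a1, a basement membrane collagen gene, measured 32.8, 21.0 and 24.9 CPM in LL-MG and 68.1, 75.5 and 81.9 CPM in LL-MDM, with 6 of 8 regions lower and a difference of -1.54 ± 0.13 (adjusted p 5.98e-08). Col4a2 beside it differed by -0.90 ± 0.09, and the membrane protease gene Mmp14 by -0.90 ± 0.12. The higher count was 1 without any single library but LL-MDM 1. Of 14 integrin loci 3 were higher and 4 lower. Itga9, a receptor subunit for tenascin, measured 163, 154 and 154 CPM in LL-MG and 272, 294 and 272 CPM in LL-MDM (-0.84 ± 0.09, adjusted p 2.13e-06), and its gap between MG and MDM was -0.16 ± 0.09, narrower, with an interaction of -0.68 ± 0.13 (adjusted p 0.00247). Itgb3, the beta-3 subunit gene, was higher (0.44 ± 0.10, adjusted p 0.00246). The higher integrin count was 1 without LL-MDM 1, LL-MDM 3 or LL-MG 2.

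TGF-beta loci were higher in 5 of 13, against 12.0% over all loci, and lower in 1 of 13, near the 8.32% over all loci. The receptor gene Tgfbr2 had 8 of 21 regions higher and measured 212, 235 and 211 CPM in LL-MG and 126, 158 and 144 CPM in LL-MDM (0.59 ± 0.09, adjusted p 8.98e-05). Smad7, the inhibitory Smad gene, differed by 0.44 ± 0.09 (adjusted p 8.09e-04), but not with regions assigned to the nearest gene only (adjusted p 0.0807). The higher count was 3 without LL-MDM 2, LL-MDM 3 or LL-MG 2. Hypoxia and glycolysis loci were higher in 2 of 15, near the 12.0% over all loci, and lower in 0. The 2 were Pfkfb3 (0.37 ± 0.09, adjusted p 0.00345) and Adm (0.69 ± 0.16, adjusted p 0.00335, and 0.0537 as adjusted p in thinned libraries), and 1 member was lower without LL-MDM 2. Of 13 proliferation loci 3 were higher, led by the cyclin gene Ccnd1 (0.72 ± 0.16, adjusted p 0.00366), and 1, the division marker Mki67, was lower (73.2, 72.2 and 79.8 CPM in LL-MG and 116, 91.3 and 106 CPM in LL-MDM, -0.43 ± 0.10, adjusted p 0.00378).

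**Figure D4:**
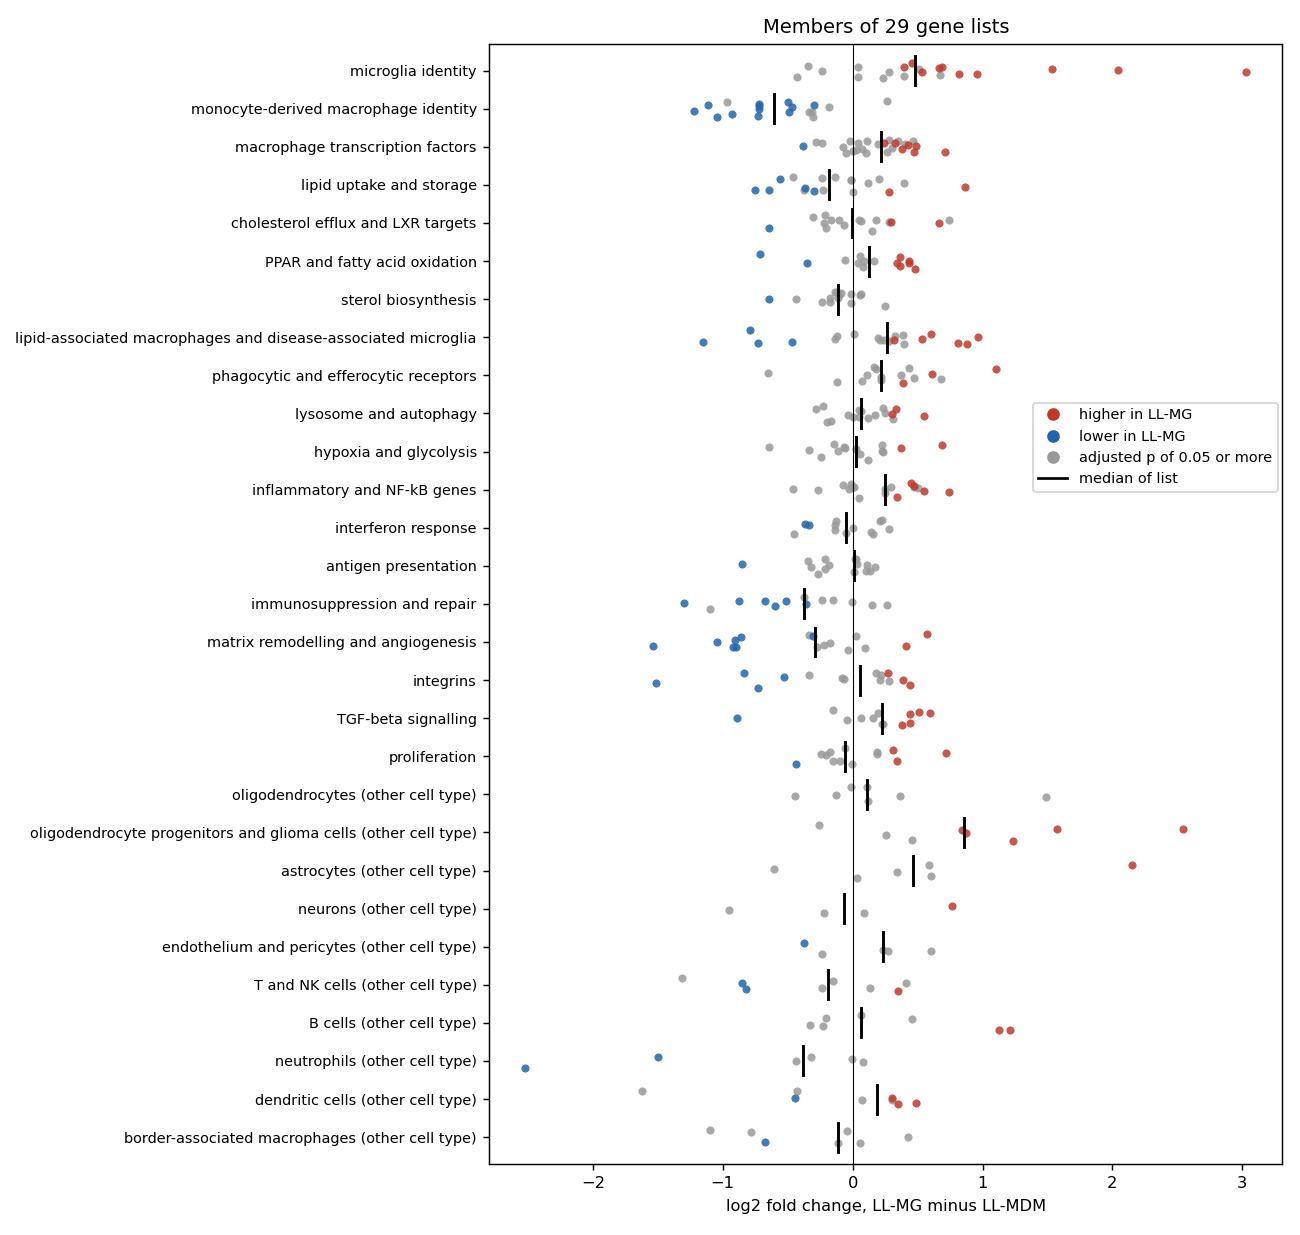
Log2 difference (LL-MG minus LL-MDM) of every tested member of 29 gene lists, 1 point per locus. Red points were called higher in LL-MG, blue lower and grey not called, and the black tick is the median of the list. Microglia identity has 10 red and 0 blue points, and monocyte-derived macrophage identity 0 red and 12 blue.

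Loci of other cell types also differed, and the part of such cells in the results above was not tested. Over all loci 12.0% were higher and 8.32% lower. Of 8 tested loci of oligodendrocyte progenitors and glioma cells 5 were higher and 0 lower (median 0.86), and their summed level was 221 to 248 CPM in LL-MG, 109 to 117 in LL-MDM, 133 to 205 in MG and 90.7 to 105 in MDM. Cspg4, the gene of the NG2 proteoglycan, measured 50.2, 53.9 and 59.4 CPM in LL-MG and 17.2, 18.97 and 17.8 CPM in LL-MDM, nestin (Nes) 45.6, 44.3 and 49.4 CPM in LL-MG and 13.9, 21.2 and 20.6 CPM in LL-MDM, and Sox2, a stem cell factor gene, 2.55, 2.74 and 3.46 CPM in LL-MG and 0, 0.654 and 0.313 CPM in LL-MDM. Sox2 was at 0 in LL-MDM 1, and Ptprz1 has no region. Slc1a3, the glutamate transporter gene of astrocytes, measured 56.6, 51.6 and 47.7 CPM in LL-MG and 6.56, 12.8 and 12.2 CPM in LL-MDM and was the 1 higher of 6 astrocyte loci, and without LL-MDM 1 there were 2. Aqp4 and Sox9 have no region, and the astrocyte sum was 245 to 257 CPM in LL-MG and 176 to 187 in LL-MDM. Loci of oligodendrocytes, the cells that make myelin, were called in 0 of 7, and their sums overlapped, at 372 to 387 and 373 to 395 CPM. In bulk libraries, fewer cells of a type and fewer accessible copies per cell cannot be told apart.

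Blood cell loci gave small counts, to be read beside the 12.0% higher and 8.32% lower over all loci. Neutrophil loci were lower in 2 of 6, with S100a8, an alarmin gene, at 0.426, 1.37 and 1.73 CPM in LL-MG and 6.56, 4.84 and 10.6 CPM in LL-MDM and Mpo, shared with a neighbour, at 10.2, 8.68 and 8.98 CPM in LL-MG and 23.8, 26.6 and 27.2 CPM in LL-MDM. Neutrophil sums were 116 to 132 CPM in LL-MG and 127 to 161 in LL-MDM, and Ly6g and Ngp have no region. T and NK cell loci were higher in 1 (Lck) and lower in 2 of 8 (Cd3d and Cd2), with sums of 202 to 227 and 203 to 229 CPM. The higher count was 0 without LL-MDM 2, LL-MDM 3, LL-MG 1 or LL-MG 2 and with a block for the mouse in the titles, and the lower 1 without LL-MDM 2, LL-MG 2 or LL-MG 3. Lck was also not called by DESeq2 (adjusted p 0.0817) or limma-voom (0.0747). Its sign reversed without flanks (-0.12) or with regions at the nearest gene only (-0.10). B cell loci were higher in 2 of 7, Blk (1.13 ± 0.21, adjusted p 5.16e-04) and Ebf1 (1.21 ± 0.32, adjusted p 0.00883), and 1 without LL-MDM 2. Dendritic cell loci were higher in 3 (Xcr1, Zbtb46 and Itgae) and lower in 1 of 8, Flt3, at 80.0, 67.2 and 69.8 CPM in LL-MG and 115, 95.3 and 91.3 CPM in LL-MDM. Border-associated macrophage loci were lower in 1 of 7 (Mrc1, -0.68 ± 0.14, adjusted p 0.00111), and in 2 without LL-MDM 1, LL-MDM 2 or LL-MG 3. Neuronal loci were higher in 1 of 4 (Rbfox3, 0.77 ± 0.18, adjusted p 0.00344) and those of endothelium and pericytes lower in 1 of 5 (Pdgfrb, -0.38 ± 0.10, adjusted p 0.0118, and 0 without LL-MDM 3).

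The lineage difference of lipid-laden cells mostly had the sign of that in cells without lipid load. Of the 3156 called loci 2832 had the same sign between MG and MDM, and 76 were called there with the opposite sign. For regions the numbers were 15432 of 16704 and 305. Between MG and MDM 51.7% of all regions and 41.0% of all loci were called. The comparisons share no library, but 1 model estimated the spread for both. Where the lineage gap did depend on lipid load, by a test of the difference itself, the directions were unequal in number. Of the higher regions, 442 had a larger and 1037 a smaller gap in lipid-laden cells, and of the lower regions 910 a larger and 268 a smaller one. These regions were chosen by their lipid-laden difference, which is also a term of the interaction. That choice favours larger gaps, so the split is descriptive. In all 8467 regions (10.9%) and 1356 loci (8.72%) passed that test. Without 1 lipid-laden library, the region count was 3831 (LL-MDM 2), 5118 (LL-MDM 3), 5228 (LL-MG 1), 5300 (LL-MG 2) or 4786 (LL-MG 3), and the locus count 822, 717, 782, 713 and 812 in that order. The MG libraries were uneven. In log2 CPM, LL-MG libraries correlated with MG 1 at 0.907 to 0.915 but with MG 2 at 0.800 to 0.814. No interaction fit left out an MG or MDM library, so the weight of MG 2 in these counts was not tested.

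At H2-Aa, Zfp366 and Gpr55, where the gap was smaller with lipid load, the LL-MDM libraries lay between those of MDM and LL-MG. H2-Aa measured 29.9, 20.3 and 24.6 CPM in MG and 196, 199 and 206 in MDM, far apart, and differed by -3.06 ± 0.11 there. Zfp366, the gene of a dendritic cell repressor, measured 17.03, 13.3 and 12.1 CPM in LL-MG and 34.5, 31.1 and 36.9 CPM in LL-MDM, beside 17.005, 9.61 and 11.1 in MG and 131, 128 and 127 in MDM. For Gpr55, a lysolipid receptor gene, the levels were 51.1, 50.7 and 47.7 CPM in LL-MG and 77.1, 85.2 and 74.1 CPM in LL-MDM, beside 54.8, 45.3 and 46.5 in MG and 175, 183 and 206 in MDM. Dmxl2, which encodes a subunit of the complex that assembles the proton pump, turned in sign, with 109, 113 and 93.6 CPM in LL-MG and 148, 141 and 135 CPM in LL-MDM but 103, 141 and 117 in MG and 61.6, 59.9 and 67.4 in MDM.

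**Figure D5:**
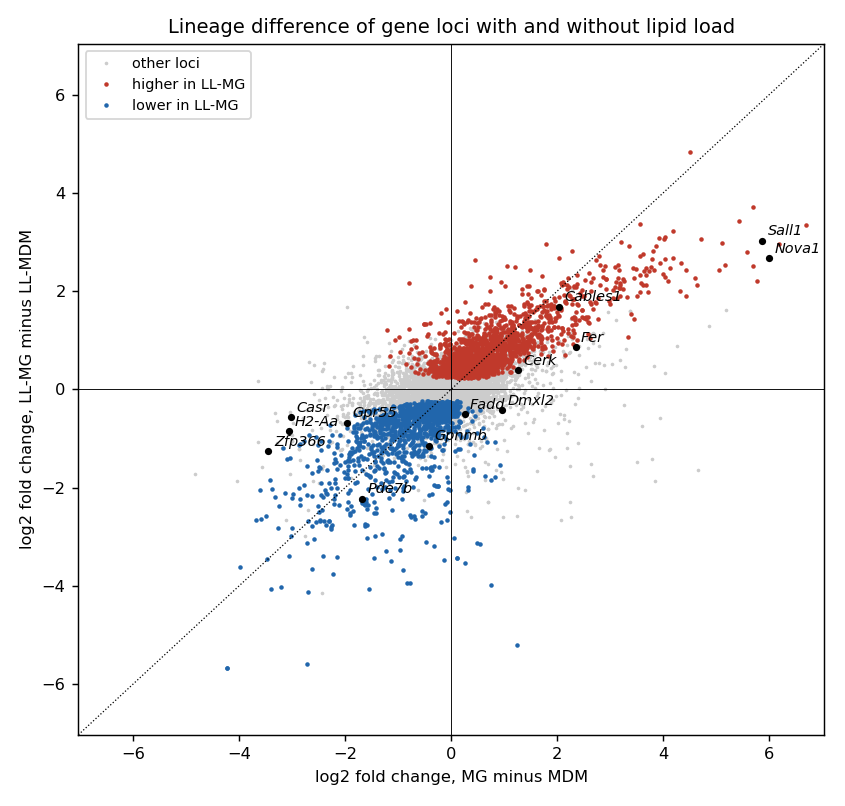
Log2 difference LL-MG minus LL-MDM (vertical) against MG minus MDM (horizontal) for the 15548 tested gene loci, with loci called in the lipid-laden comparison in red (higher) and blue (lower), and the diagonal dotted. Named loci are 9 chosen by the interaction test and 4 others, Sall1, Gpnmb, Cables1 and Pde7b. Of the latter, Sall1, Gpnmb and Pde7b also passed that test. Sall1 and Nova1 lie far right and below the diagonal, H2-Aa, Casr and Zfp366 far left and above it, and Dmxl2 in the lower right quadrant.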

How the data were processed

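The authors deposited whole-number counts of ATAC-seq reads for 12 libraries in 117835 regions, and these were analysed without change. Per the labels' protocols, nuclei of sorted cells were tagmented with Tn5 made in house, with 2 rounds of 9 PCR cycles and selection of 150 to 700 bp. The tools named per the submitters' processing notes are deepTools 3.5.1, Picard 2.12.0, SAMtools 1.10 and the aligner BWA 0.7.17-r1188, with the build mm10. How peaks were called, whether duplicates were removed and whether Tn5 cuts were shifted is not given in the sources used here. PCR duplicates may therefore be counted. All columns were mapped (0 unmapped).

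Groups follow the library names. Replicate numbers follow accession order, fall together with sets of 4 consecutive library numbers and were not used as pairs in the main fit. Regions were filtered with filterByExpr and scaled with TMM, and 1 model over 4 groups was fitted with edgeR 4.0.16 (glmQLFit, robust, glmQLFTest) in R 4.3.3. Adjusted p-values are Benjamini-Hochberg over all features, and SE is the absolute log2 difference over the root of F. Gene spans are from RefSeq (GRCm38.p6): 81215 regions were assigned to protein-coding genes, 11090 of them to several, so neighbours share counts, and coordinates are as the count table or RefSeq gives them. Of 385 list symbols 384 matched. Alternatives were RLE, library totals, loess offsets, DESeq2 1.42.0, limma-voom 3.58.1, other filters, thinning to 1162969 counts, 6 libraries only, other gene assignments, groups by title, each laden library left out and, added after the data were seen, 2 replicate blocks. Scripts were tested on simulated data.

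Named loci are 12 fixed ones, Cdkn2a and up to 4 called members per list by p (a few more where a count is explained). With no overlap and an absolute log2 of at least 1, the 8 loci (at least 2 regions of their own) and 8 regions per direction with the smallest p were added. The 5 loci per direction with most regions called one way and none called the other way were also named, as were the 5 per direction for the interaction. Single regions within a locus, Foxp1, Bach2, Lpp and printed promoters were picked with values known. The members and the 29 lists were chosen with earlier results of these data known. Some loci and 1 list result that fall under these rules are not reported here.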

Additional observations from a re-analysis of the deposited data

Results flagged for a closer look

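At 9 gene loci the difference between lipid-laden microglia and lipid-laden MDM departed from that between the lineages without lipid load by edgeR's interaction test. They are among the 5 in each direction with the smallest p among loci called in both tests, so their size is that of a selected extreme. The interaction is given on the log2 scale with its SE and is positive where LL-MG minus LL-MDM exceeds MG minus MDM.

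Positive values were measured at H2-Aa (2.21 ± 0.18, adjusted p 1.61e-07), Casr (2.46 ± 0.24, adjusted p 7.04e-06), Zfp366 (2.19 ± 0.24, adjusted p 7.64e-06) and Gpr55 (1.28 ± 0.14, adjusted p 1.09e-05). Casr encodes the calcium-sensing receptor, and its levels were 22.6, 19.7 and 25.6 CPM in LL-MG and 36.9, 32.7 and 34.1 CPM in LL-MDM, with 136, 131 and 137 CPM in MDM. Its lipid-laden difference of -0.57 ± 0.18 (adjusted p 0.0345) was not called in thinned libraries, by limma-voom, or without LL-MDM 1, LL-MDM 2, LL-MDM 3, LL-MG 1 or LL-MG 2, or with a block for the mouse in the titles (adjusted p 0.0595 to 0.116).

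Negative values were measured at Dmxl2 (-1.39 ± 0.14, adjusted p 5.69e-06), Nova1 (-3.33 ± 0.39, adjusted p 1.81e-05), Fer (-1.49 ± 0.20, adjusted p 2.78e-04), Cerk (-0.87 ± 0.13, adjusted p 4.26e-04) and Fadd (-0.76 ± 0.12, adjusted p 5.20e-04). Nova1 stood at 0.415, 0.615 and 0.629 CPM in MDM and 9.03, 6.41 and 9.06 in LL-MDM. Fer, a tyrosine kinase gene, differed by 0.86 ± 0.15 with lipid load and 2.35 ± 0.14 without, and Cerk, the ceramide kinase gene, by 0.39 ± 0.10 and 1.26 ± 0.09. Dmxl2 and Fadd, the latter the adaptor gene of death receptors, had opposite signs in the lipid-laden (-0.42 ± 0.11 and -0.50 ± 0.09) and non-laden comparisons (0.96 ± 0.10 and 0.26 ± 0.08). The lipid-laden call was lost without LL-MG 3 at Dmxl2 (adjusted p 0.0575) and without LL-MDM 3 (0.0588) or LL-MG 2 (0.0604) at Cerk, and the interaction at Fadd was lost in thinned libraries (0.0655). Groups of 3 libraries are too small for a test of single outlying libraries.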

How the results depend on the processing

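Thinning every library to 1162969 counts left 34536 regions to test, with 2524 higher, 3079 lower and 1376 with an interaction, and 547 loci with an interaction. A minimum count of 30 left 36506 regions to test, with 4334 higher and 4706 lower. Groups by sample title gave 0 and 0 regions and 0 and 0 loci (edgeR; 857 regions and 106 loci at an unadjusted p under 0.05). The fit on 6 libraries called 2041 loci lower. Leaving out 1 library at a time gave 4861 to 7019 regions higher, 5523 to 7898 lower, 3831 to 6859 with an interaction, 1294 to 1514 loci higher, 925 to 1055 lower and 713 to 950 with an interaction. Without LL-MDM 2, the deepest of the 6 libraries, the region counts were 4861 and 5523.

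Among 2522 values of 135 named results under the alternatives, 2414 kept their direction and side of the threshold, 91 lost the call, 13 gained one and 4 reversed. The reversals were Tmem119 without flanks (0.67), Aurkb without flanks (-0.070), and Lck with regions at the nearest gene only (-0.10) or without flanks (-0.12), and their cause is the set of regions summed.

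Replicate numbers in accession order fall together with sets of 4 consecutive library numbers. The main fit left the libraries unpaired, so 2 blocks were added after the data were seen. With the mouse of the titles as a replicate block, 7205 regions were higher, 7697 lower and 6299 had an interaction, and 1672 loci were higher, 1173 lower and 949 had an interaction. Sets of 4 consecutive library numbers each hold a library of every group, a balanced layout that the labels do not explain. With these sets as a replicate block, the counts were 7536, 8247, 7595, 1768, 1244 and 1187 in the same order. Deviations of LL-MG and LL-MDM libraries of the same mouse or set correlated at -0.031 to 0.043, none over 0.1. Single regions hold few counts, so these values cannot decide whether the libraries are paired. The call at Lck was lost with either block (adjusted p 0.0770 and 0.0616).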

Other observations

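Called regions were spread unevenly over chromosomes. The X chromosome had the smallest share, with 4.26% of its 1269 tested regions higher in LL-MG and 8.98% lower. Chromosome 18 had the largest, with 14.1% higher and 12.4% lower of 2215. Chromosome 11 leaned most to LL-MG, at 11.2% higher and 7.61% lower of 6218 regions. Chromosome 10, like X, had more lower than higher regions, at 8.62% higher and 13.01% lower of 4174. Several other chromosomes did too, such as 13 (10.5% higher and 14.4% lower) and 19 (8.80% and 12.7%). These are descriptions with no test, and neighbouring regions are not independent.

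Regions named for neither lipid-laden group still differed. Of 23748 such regions, 1099 were higher and 2065 lower, with a median width of 162 bp against 375 bp for the 34204 named for both.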
